A study of Caenorhabditis elegans with 2 samples.

Results

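The genes described here are 10 heterochronic genes of Caenorhabditis elegans, the genes that set when larval cells take on the fates of each stage: ain-1, lin-66, lin-14, lin-28, lin-29, lin-41, lin-42, lin-46, hbl-1 and daf-12. They are 10 of the 19973 protein-coding genes in the annotation, and the regions described are the 92 of 30000 pooled peaks whose summit lay inside one of them or within 5 kb of it. The list of genes was chosen on peak signals of these same libraries, in which ain-1 and lin-66 had already been seen to have high peaks, so those signals are given as a description and no test was made. The protein immunoprecipitated was UNC-39, the worm member of the SIX4/5 group of homeodomain factors, and its sites were read by ChIP-seq, the sequencing of DNA fragments crosslinked to it, from whole L2 larvae of both sexes. All animals were of strain OP186, which carries unc-119(ed3) on chromosome III and wgIs186, an inserted unc-39 construct with an eGFP tag. There were 2 biological replicates and 1 group, with no larvae of another stage or genotype to compare them with. The sources used here do not give the promoter, the cells or the copy number of the construct. The control library was not analysed here. Whole animals were used, so a peak does not tell in which cells the protein was bound.

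In the heterochronic pathway each stage-specific programme is held in place until a microRNA removes the factor that maintains it. The microRNA lin-4 lowers LIN-14 and LIN-28 early in larval life, the let-7 family then lowers HBL-1 and LIN-41, and LIN-29 finally drives the switch of the skin from larva to adult. The nuclear hormone receptor DAF-12 couples this order to food and growth conditions, and AIN-1 belongs to the silencing complex through which the microRNAs act.

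The authors deposited peak lists, each peak with a signal that is their value for that peak and that can be ranked within a list but not compared between lists. Depth is unknown, because the lists hold no read counts. The pooled list, called by the authors on both replicates together, held 30000 peaks with signals of 13.0 to 139 and a median of 17.0. The thresholded list, which the authors made from the pooled and replicate lists with the irreproducible discovery rate, held 140 peaks, and these were the 140 with the highest pooled signal; the last of them and the first peak outside both had a signal of 45.9. The list of replicate 1 held 30000 peaks with a median signal of 10.4, and that of replicate 2 held 24978 with a median of 9.48. The authors label the pooled list as peaks and background, made as input for that procedure. A pooled peak or site outside the thresholded list, as most are, therefore need not be a place where UNC-39 was bound. Ranks count from 1 at the highest signal. A pooled summit is said to have a partner in a replicate when a summit of that replicate's list lay within 100 bp.

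Of the 10 genes, 3 had a thresholded summit within reach, and they belonged to different branches of the pathway: ain-1 in microRNA silencing, lin-66 among the factors that lower lin-28, and daf-12 among the hormone receptors. A reach of 5 kb takes in a thresholded summit at 1.72% of all protein-coding genes. With the highest 1% of pooled peaks, 300 in number, 5 of the 10 genes had a summit in reach, lin-14 and lin-41 being added, against 3.49% of all protein-coding genes. The members had been chosen with such values known, so nothing is read from the difference. The remaining 5 genes, lin-29, lin-28, lin-42, hbl-1 and lin-46, had no summit above a signal of 32.7. Among the 140 highest peaks of replicate 1 alone, 1 of the 10 genes had a summit in reach, ain-1, against 1.72% of all genes. Among the 140 highest of replicate 2 alone the number was 4, with ain-1, lin-66, daf-12 and lin-14, against 1.61% of all genes, so the count depended on which replicate was ranked. Nearest to the edge of the reach, the last summit inside was a daf-12 one at 4733 bp with a signal of 16.2, and the first outside was a lin-29 one at 5033 bp with 17.8.

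The sequences that follow are the 200 bp around the highest pooled summits of ain-1, lin-66, daf-12, lin-14 and lin-29, shown because the results turn on these sites and because they differ in makeup. They were read from the RefSeq genome of assembly WBcel235, the same assembly as ce11, on the plus strand. Capitals mark GAGAGA and CACACA, repeat words that were common in the thresholded peaks, and GCCTAA, the worm's telomere repeat unit as read on one strand, each on either strand. These words were chosen after the sequences had been seen.
ain-1, rank 47, chrX:16612431-16612630, upstream of the gene: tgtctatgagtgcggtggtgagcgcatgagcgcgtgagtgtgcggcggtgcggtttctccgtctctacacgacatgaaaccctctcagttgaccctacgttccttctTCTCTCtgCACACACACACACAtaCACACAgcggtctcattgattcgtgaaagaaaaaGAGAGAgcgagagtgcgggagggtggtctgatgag
lin-66, rank 60, chrIV:13887637-13887836, upstream of the gene: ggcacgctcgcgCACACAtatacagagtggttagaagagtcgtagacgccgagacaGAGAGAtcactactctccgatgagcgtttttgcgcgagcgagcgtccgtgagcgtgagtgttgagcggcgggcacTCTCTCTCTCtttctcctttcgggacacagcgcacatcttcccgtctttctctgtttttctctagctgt
daf-12, rank 66, chrX:10637545-10637744, intron: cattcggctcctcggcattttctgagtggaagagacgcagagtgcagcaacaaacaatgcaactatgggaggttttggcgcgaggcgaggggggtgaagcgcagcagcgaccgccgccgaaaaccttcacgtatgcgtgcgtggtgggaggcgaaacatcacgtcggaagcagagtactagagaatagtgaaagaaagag
lin-14, rank 174, chrX:11473345-11473544, intron: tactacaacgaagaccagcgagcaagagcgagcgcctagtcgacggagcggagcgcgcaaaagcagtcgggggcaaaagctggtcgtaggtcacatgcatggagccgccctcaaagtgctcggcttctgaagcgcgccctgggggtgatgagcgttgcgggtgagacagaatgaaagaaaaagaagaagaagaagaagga
lin-29, rank 661, chrII:11923294-11923493, intron: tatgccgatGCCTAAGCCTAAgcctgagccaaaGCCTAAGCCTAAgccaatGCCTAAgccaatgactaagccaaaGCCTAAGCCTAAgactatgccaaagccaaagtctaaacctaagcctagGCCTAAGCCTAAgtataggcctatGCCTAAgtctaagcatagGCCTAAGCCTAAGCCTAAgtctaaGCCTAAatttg

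The ain-1 window held 2 matches of GAGAGA and 6 of CACACA, and the lin-66 window held 4 of GAGAGA and 1 of CACACA. Neither word, nor GCCTAA, was found in the daf-12 or the lin-14 window. The lin-29 window was of another kind: 14 matches of GCCTAA covered 84 of its 200 bases, and as many matches were found in 12 of the 30000 pooled windows (0.04%). Among the 92 windows of the 10 genes, GAGAGA was present in 22.8%, against 13.8% of all pooled windows and 50% of the thresholded ones. CACACA was present in 14.1% of the genes' windows, against 10.9% of all and 43.6% of the thresholded ones. For GCCTAA the shares were 10.9% of the genes' windows, 5.32% of all and 7.86% of the thresholded ones. The most matches in any of the 92 windows were 5 of GAGAGA and 14 of CACACA, at sites whose sequence is not shown. As many CACACA matches were found in 0.0533% of all pooled windows. The GC content was 54.0% in the ain-1 window, 55.0% in the lin-66 window, 55.5% in the daf-12 window and 57.0% in the lin-14 window. All of these lie above the median of 40.5% over the 92 windows and of 38.5% over all pooled windows. The median of the thresholded windows was 50%. The lin-29 window, at 46.5%, and that of the highest lin-41 summit, at 46.0%, were below this thresholded median. The lin-14 windows of ranks 336, 383, 386, 641 and 940 had 44.0%, 35.5%, 37.0%, 37.0% and 44.5%, so not every high site was rich in GC.

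**Figure D1:**
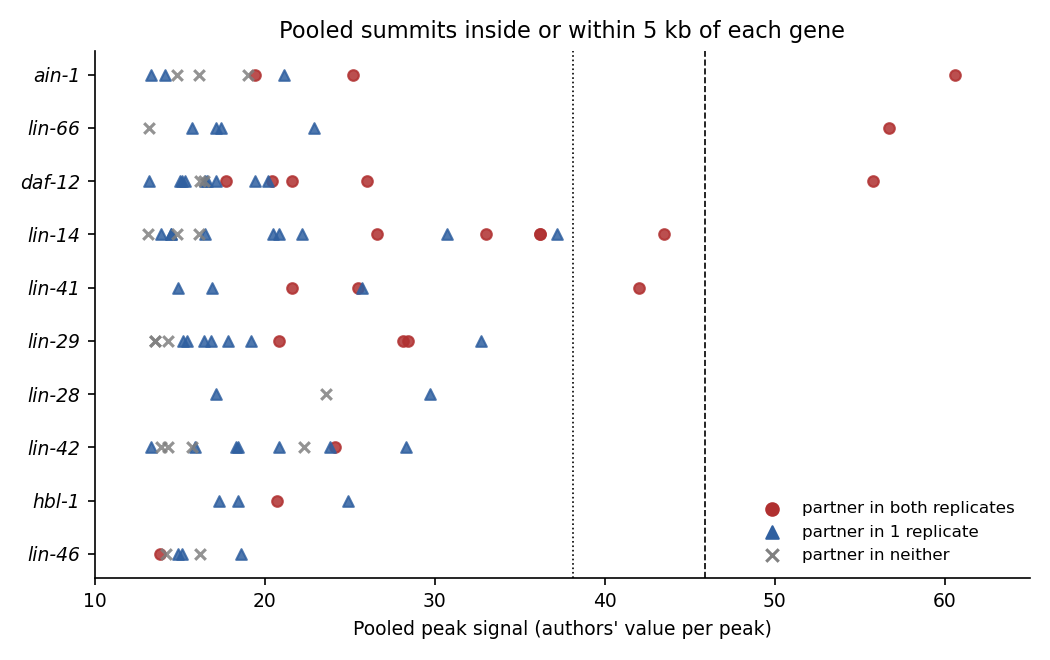
Each mark is 1 of the 92 pooled summits inside or within 5 kb of a gene (rows, ordered by highest signal), placed by its pooled signal, the authors' value per peak. Shape and colour give whether a replicate summit lay within 100 bp; the dashed line is the lowest thresholded signal, 45.9, and the dotted line the lowest signal of the top 1%, 38.1. ain-1, lin-66 and daf-12 each have 1 summit beyond the dashed line and the rest of their summits at 26 or lower, while lin-14 has 6 from 30.7 to 43.5.

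ain-1 encodes a GW182-family protein that binds Argonautes and carries microRNA silencing. The gene lies at chrX:16613451-16616871 on the plus strand, and 9 pooled summits fell in its reach. Its highest summit, at position 16612531, was 920 bp upstream of the annotated 5′ end and outside protein-coding genes, with a pooled signal of 60.6 and rank 47. Replicate 1 gave this site a signal of 26.4, rank 88 of its list, and replicate 2 gave it 29.9, rank 104. Both replicates thus placed it near the top, and their own highest summits in the gene's reach lay 3 bp apart. Of all protein-coding genes, 0.616% had a pooled signal as high within reach. The next summit of the gene, inside its coding sequence 958 bp past the 5′ end, had a signal of 25.2 and rank 2839. A further summit with a signal of 21.1 lay 9 bp past the 5′ end and had a partner in replicate 2 only. The ain-1 region thus held a single high site, and its other summits had signals of 13.3 to 25.2.

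lin-66 promotes the transition from the second to later larval programmes, in part by keeping lin-28 low. It lies at chrIV:13888079-13893986 on the plus strand, with 6 pooled summits in reach. The highest, at position 13887737, was 342 bp upstream of the 5′ end, with a pooled signal of 56.7 and rank 60, and 0.801% of protein-coding genes had a signal as high. Here the replicates differed: the signal was 39.2 and the rank 31 in replicate 2, whereas replicate 1 gave 17.0 and rank 1777. In replicate 1, 20.3% of protein-coding genes had a signal as high within reach, against 0.426% in replicate 2. The position was shared, since the 2 summits lay 26 bp apart. The other 5 summits had signals of 13.2 to 22.9, and none of them had a partner in both replicates.

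daf-12 encodes the nuclear hormone receptor that, with its steroid ligands, chooses between reproductive growth and the dauer state and acts on the let-7 family. It is the longest of the 10 genes, 30968 bp at chrX:10635908-10666875 on the plus strand, with 9 annotated 5′ ends and 16 pooled summits in reach. Its thresholded summit, at position 10637645, was in the first intron of the transcript F11A1.3e.3, an intron of 8353 bp, and 1737 bp past the first 5′ end. The pooled signal was 55.8 and the rank 66. Replicate 1 gave the site a signal of 20 and rank 651, and replicate 2 gave it 33.9 and rank 56. The site was again higher in the order of replicate 2, and the highest summits of the replicates were 13 bp apart. A second intron summit, 5202 bp past the 5′ end, had a signal of 26 and rank 2359, and a summit 299 bp upstream of the 5′ end had 21.6. The remaining 13 had lower signals, down to 13.2, and lay along the whole gene and past its 3′ end.

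**Figure D2:**
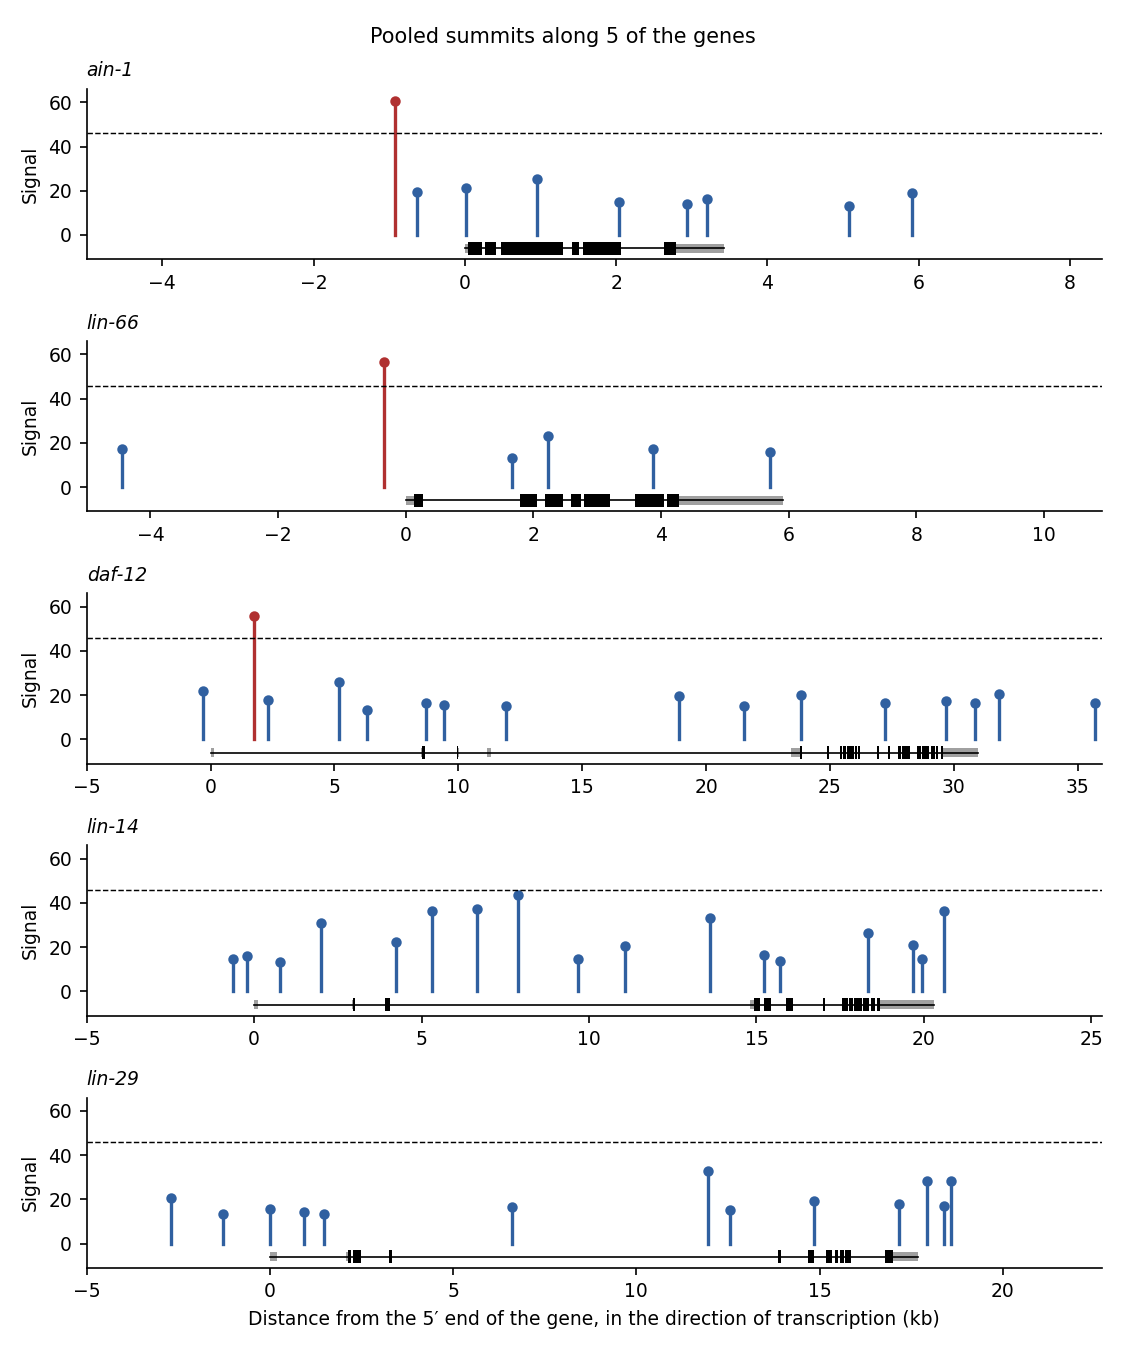
Pooled summits along ain-1, lin-66, daf-12, lin-14 and lin-29, with the distance from the 5′ end of the gene in kb on the x axis and the pooled signal on the y axis. Thresholded summits are in red, others in blue, the dashed line is the lowest thresholded signal (45.9), and below each axis black boxes are coding and grey boxes untranslated exons. A single high summit stands near the start of ain-1, lin-66 and daf-12, whereas lin-14 has a row of summits of 30.7 to 43.5 through its long introns and past its 3′ end.

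lin-14 encodes a nuclear, DNA-binding protein that keeps cells in the first larval programme and is the classic target of lin-4. The gene is 20312 bp long, at chrX:11465560-11485871 on the plus strand, and held the most pooled summits of the 10 genes, 17. None was thresholded: the highest had a signal of 43.5 and rank 174, below the lowest thresholded peak at 45.9. Of the 17, 6 were among the 1000 highest of the pooled list, with signals of 43.5, 37.2, 36.2, 36.2, 33.0 and 30.7. Only lin-14 and ppfr-1, 0.01% of protein-coding genes, had 6 or more of the 1000 highest summits in reach. With the 500 highest summits lin-14 had 4, and only ppfr-1 had more, with 5. With the 2000 highest it had 6, as many as 0.025% of genes have or exceed. This count was chosen after the values had been seen, and a long gene has more room for summits than a short one.

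Of those 6 lin-14 summits, 4 were in the third intron of the transcript T25C12.1a.1, which is 11174 bp long. Another was in the first intron, 2008 bp past the 5′ end, and the last lay 301 bp past the 3′ end. Their standing in the replicates differed from site to site. The summit of rank 174 had a signal of 15.4 and rank 3025 in replicate 1, and of 28.7 and rank 116 in replicate 2. At the intron summit of pooled rank 641 the order was the other way round, with 22.7 and rank 262 in replicate 1 but 7.86 and rank 20758 in replicate 2. The intron summits of ranks 336 and 940 had no partner in replicate 1, and in replicate 2 their signals were 20.3 and 17.8. The intron summit of rank 386 had 17.7 in replicate 1 and 15.3 in replicate 2. The site past the 3′ end, rank 383, had 16.7 in replicate 1 and 20.5 in replicate 2, ranks 2008 and 391. Each replicate thus had high lin-14 sites, but their own highest ones lay 5734 bp apart.

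lin-28 encodes an RNA-binding protein that blocks the maturation of let-7 and holds the second larval programme. It lies at chrI:8407630-8410804 on the minus strand, 3175 bp long, and had 3 pooled summits in reach, the fewest of the 10. The highest, with a signal of 29.7 and rank 1158, was not in lin-28 but 3061 bp past its 3′ end, in a coding exon of the neighbour F02E9.3. It had a partner in replicate 2 only, with a signal of 19.9 and rank 449. The only summit inside lin-28 was in an intron, 231 bp upstream of an internal 5′ end. Its signal was 23.6 and its rank 4033, and it had a partner in neither replicate.

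hbl-1, a zinc finger gene related to fly hunchback, acts with lin-28 in the second stage. It lies at chrX:5822142-5827755 on the plus strand and had no pooled summit inside it. The 4 summits in reach had signals of 17.3 to 24.9. The highest, rank 3008, was in an intron of the neighbouring gene acp-5, 1975 bp past the hbl-1 3′ end. Replicate 1 gave that site 17.4 and rank 1506. The nearest summit of replicate 2, with a signal of 9.26, was 103 bp away, just beyond the 100 bp that define a partner. The hbl-1 summit with a partner in both replicates was 1022 bp upstream of the 5′ end, with a pooled signal of 20.7 and signals of 10.8 in replicate 1 and 9.97 in replicate 2.

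lin-46, which encodes a gephyrin-related protein that opposes HBL-1, was the lowest of the 10. At chrV:12968855-12970730 on the plus strand it had 6 summits in reach with a highest signal of 18.6, rank 11028, and 73.0% of protein-coding genes had one as high. That summit was in a coding exon of srd-35, 4187 bp upstream. The 2 summits inside lin-46 had signals of 16.2 and 14.9, below the pooled median of 17.0.

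lin-41 encodes a TRIM-NHL protein, a let-7 target that holds back the adult programme by repressing lin-29 mRNA. At chrI:9334800-9342496 on the minus strand it had 6 pooled summits in reach, every one with a partner in at least 1 replicate. The highest was 1570 bp upstream of the 5′ end, with a signal of 42.0 and rank 203. Replicate 1 gave it 20.6 and rank 525, and replicate 2 gave it 26.1 and rank 162, with the replicates' highest summits 73 bp apart. Next in order was a pair of summits 200 bp apart in the untranslated exon at the 3′ end of lin-41, with signals of 25.7 and 25.5. Neither was thresholded, and the higher of them had a partner in replicate 2 only. That exon carries the let-7 sites of the messenger RNA, but these values are ChIP-seq signals on DNA and say nothing of RNA.

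lin-29, the zinc finger factor of the larva-to-adult switch, lies at chrII:11917642-11935343 on the minus strand and had 13 pooled summits in reach. The highest, at position 11923394 in the fourth intron of W03C9.4a.1, had a signal of 32.7 and rank 661. It is the site whose window is filled with GCCTAA. Replicate 2 placed it at rank 247 with a signal of 23.2, and the nearest summit of replicate 1 was 248 bp away, so replicate 1 had no partner. Soft-masking, the lower case of the assembly that marks repeats, covered 76.5% of that window. The median was 19.0% over the 92 windows, against 21.0% over all pooled windows. The sources used here do not say how reads were placed in such repeats, and the part of the repeat in this signal was not tested. The lin-29 summits with partners in both replicates were lower, at 28.4, 28.1 and 20.8, and the first 2 of these lay past its 3′ end in coding exons of hmg-12.

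lin-42, the worm relative of the clock gene Period, cycles with the moults. It lies at chrII:1233236-1252359 on the minus strand, with 12 pooled summits in reach and signals of 13.3 to 28.3. The highest, rank 1513, was in an intron 908 bp upstream of an internal 5′ end, with a partner in replicate 1 alone at a signal of 13.4. The only summit with a partner in both replicates had a pooled signal of 24.1, and 10.1 in replicate 1 and 13.0 in replicate 2. The replicates' own highest summits were 22296 bp apart, the widest gap among the 10 genes.

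**Figure D3:**
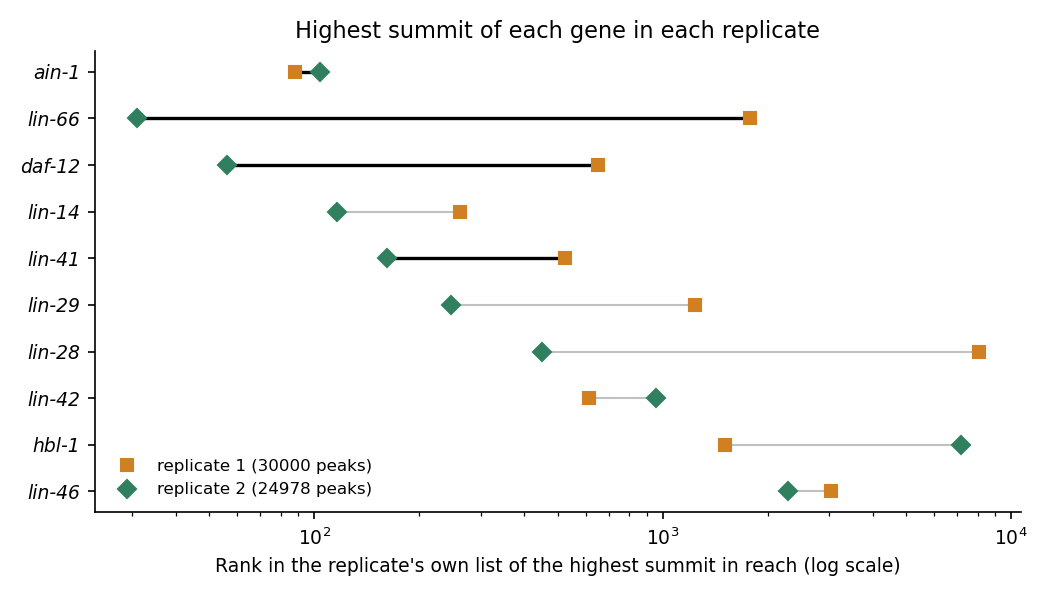
Rank of the highest summit in reach of each gene in the list of replicate 1 (squares) and of replicate 2 (diamonds), on a log scale with high signals to the left. Black lines join replicates whose highest summits lay within 100 bp of each other, as for ain-1, lin-66, daf-12 and lin-41, and grey lines those farther apart. ain-1 has nearly the same rank in both (88 and 104), while lin-66 spans 1777 in replicate 1 and 31 in replicate 2.

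The replicates pointed to the same highest site at 4 of the 10 genes, ain-1, lin-66, daf-12 and lin-41, where their highest summits were within 100 bp. This held for 10.5% of the 18393 protein-coding genes with a summit of each replicate in reach. Of these 4 genes, 3 have thresholded peaks, which the authors' procedure picked with both replicates' lists, and the measure was chosen after the values had been seen. At ain-1, lin-42 and hbl-1 the highest summit had the better rank in replicate 1, and at the other genes in replicate 2, in lists of unequal length.

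Over all 92 summits, 25% had a partner in both replicates (95% exact binomial interval 16.6 to 35.1), against 19.0% of all pooled summits. Another 54.3% had a partner in 1 replicate, against 63.6%, and 20.7% had none, against 17.4%. The interval covers counting error only, and summits close together are not independent. The thresholded summits were 3 of 92, or 3.26%, against 0.467% of all pooled summits, and those above the pooled median signal 56.5%, against 50%. The genes had been chosen with such signals known, so no interval is given for these shares and nothing is read from the differences. The median signal was 17.8 over the 92 summits and 17.0 over all.

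**Figure D4:**
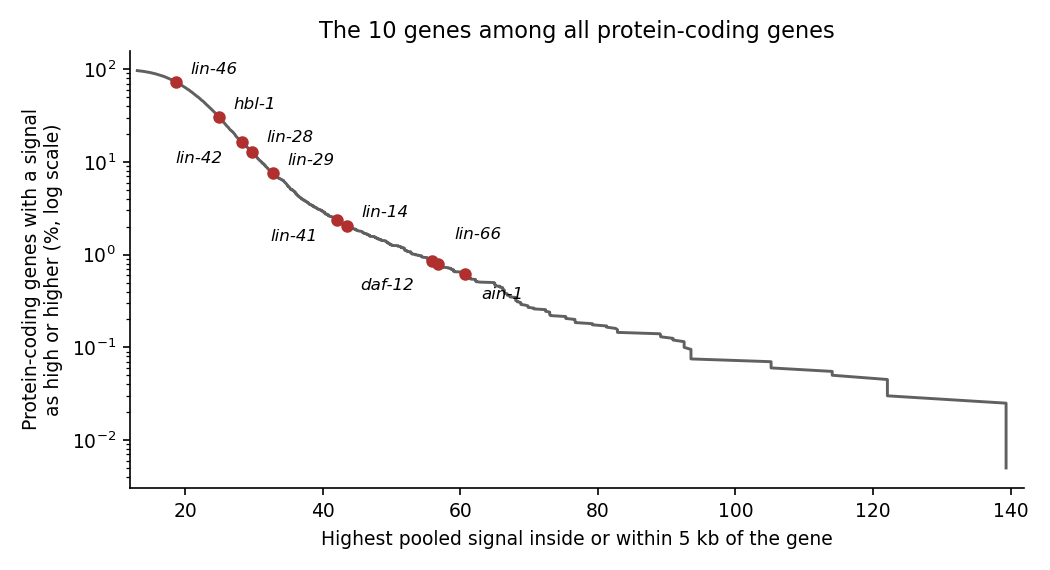
The share of protein-coding genes with a pooled signal as high or higher within reach (y axis, %, log scale) against that signal (x axis), as a line over all 19973 genes with the 10 genes marked. The 10 genes run from lin-46 at a signal of 18.6 (73.0%) to ain-1 at 60.6 (0.616%), within a range of 13.0 to 139 over all genes, and every one but lin-46 and hbl-1 is at 16.3% or less.

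The 10 genes differ in length from the rest, and a reach around a longer gene takes in more summits. Their median length was 6800 bp, against 2030 bp over all protein-coding genes. Their median highest signal was 37.4, against 22.1 for the 19308 genes that had any summit in reach. What part length has in these signals was not tested. The 10 genes had been chosen with such signals known, so nothing is read from this difference or from the shares of thresholded genes below. Of the 4 genes of 15 kb or more, daf-12 had a thresholded summit and lin-14, lin-29 and lin-42 had none, whereas 2.72% of all genes that long had one. Of the 4 genes on X, ain-1 and daf-12 had one and lin-14 and hbl-1 had none, against 3.48% of all X genes. Of the 6 autosomal genes, lin-66 had one, against 1.44% of all autosomal genes. Per length of reach the 10 genes had a median of 0.401 summits per kb, against 0.287 over all protein-coding genes, with 0.228 at lin-28 the lowest and 0.671 at ain-1 the highest.

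By position, 60 of the 92 summits were inside the genes, 18 upstream and 14 downstream. An own 5′ end was nearest for 72, and a 5′ end of another gene for 20, among them the highest summits of lin-28, hbl-1 and lin-46. Within 1000 bp of an own 5′ end lay 31 summits, of which 14 had a signal above the pooled median. Summits were assigned because they lay in or near the genes, which in part sets these counts. No share over all pooled summits is given for them. Introns held 45.7% of the summits (35.2 to 56.4), against 29.6% of all pooled summits, and coding exons 19.6% (12 to 29.1), against 32.9%. Both shares are close to the makeup of the DNA in reach, of which introns are 46.6% and coding exons 17.8%. Untranslated exons held 14.1% (7.74 to 23), with 7.17% of the bases in reach, against 4.81% of all pooled summits. These were 13 summits, among them pairs 200 bp apart at lin-41, 259 bp at ain-1 and 275 bp at lin-14. Such pairs are not independent, as the interval takes them to be, so nothing is read from the difference. Sequence outside protein-coding genes held 20.7% of the summits (12.9 to 30.4), with 28.5% of the bases in reach, against 32.6% of all pooled summits. The summits outside genes had the highest median signal of the 4 classes, 20.4, and those in untranslated exons reached at most 25.7.

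**Figure D5:**
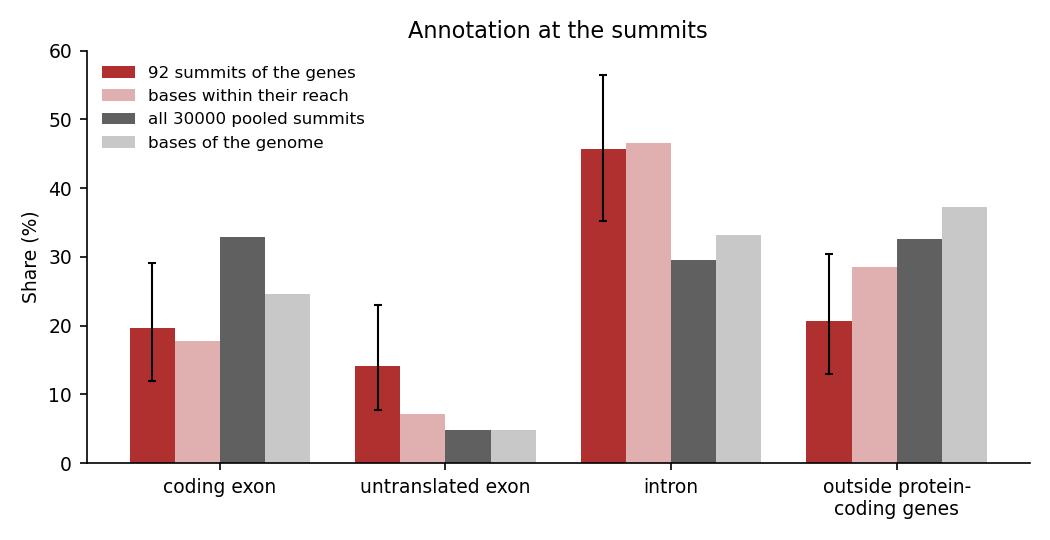
Share (%) of the 92 summits in each annotation class (dark red, with 95% exact binomial intervals), of the bases within reach of the 10 genes (light red), of all 30000 pooled summits (dark grey) and of the bases of the genome (light grey). The genes' summits follow the bases in their reach for coding exons and introns. In untranslated exons the shares are 14.1% of summits and 7.17% of bases, but some of those summits are close pairs. The intervals treat all summits as independent.

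Sequence patterns were sought in either orientation within the same 200 bp windows. The GA repeat GAGAGAGA was in 5.43% of the 92 windows (1.79 to 12.2), against 2.46% of all pooled windows. It was found at lin-66's thresholded site, at a lower ain-1 summit, at both a lin-28 intron site and a site past lin-28, and at a lin-42 intron site. TGATAC, the core bound by fly Sine oculis, was in 6.52% (2.43 to 13.7), against 6.69% of all. TGACAC, the core of fly Six4, was in 5.43% (1.79 to 12.2), against 8.17%, and TCAGGTTTC, the vertebrate MEF3 site, counted with up to 1 mismatch, in 2.17% (0.264 to 7.63), against 6.26%. None of these 3 was in the windows of the thresholded summits of ain-1, lin-66 and daf-12. The matches of TCAGGTTTC were at lin-14 intron summits of ranks 386 and 7679, the first with a partner in both replicates. CAGCTG, an E-box, was in 1.09% (0.0275 to 5.91), against 4.9%. TGATAA, a word that GATA factors bind, was in 8.7% (3.83 to 16.4), against 16.3%. Every match of GAGAGAGA is also one of GAGAGA, and TGATAA shares its first letters with TGATAC.

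Another 29 genes of the pathway, taken from a list of microRNA genes, microRNA machinery, timing regulators, the hormone axis of DAF-12 and let-7 family targets, were examined in the same way. Of the 29, 26 had a pooled summit in reach, as did 19308 of the 19973 protein-coding genes. A summit of the top 1% was in reach of 3 and a thresholded one of 2, against the 3.49% and 1.72% of all protein-coding genes. This list too was written with earlier results of these data known, so nothing is read from these counts. The 29 include 5 microRNA genes and the noncoding RNA gene lep-5, whereas these shares are over protein-coding genes only. puf-9, a Pumilio-family gene that acts with let-7 on hbl-1, had its thresholded summit 293 bp upstream of its 5′ end, with a pooled signal of 51.5 and rank 95, and ranks of 35 in replicate 1 and 1361 in replicate 2. The puf-9 site lies 13544 bp past the 3′ end of hbl-1, outside its reach. drsh-1, which encodes the Drosha nuclease of microRNA processing, had one of 52.3 and rank 87, but 2985 bp upstream and 16 bp from the 5′ end of cox-5B. It ranked 53 in replicate 1 and had no partner in replicate 2.

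None of the 5 microRNA genes had a summit of the top 1% in reach, against 3.49% of protein-coding genes, so little can be read from so few. lin-4 had a highest signal of 26.9, mir-84 of 24.4 and let-7 of 19.3, and the median over all protein-coding genes with a summit was 22.1. The lin-4 and let-7 summits had no partner in replicate 2, and that of let-7 was 14 bp from the 5′ end of C05G5.2. mir-48 and mir-241 had no pooled summit within 5 kb. They lie within 5 kb of each other on chromosome V, so their empty reaches largely overlap. Among the 9 genes of microRNA machinery the median highest signal was 26.7, and alg-1 and alg-2, the Argonautes that AIN-1 binds, reached 27.6 and 19.2. The alg-1 summit lay 3642 bp outside the gene and 246 bp from the 5′ end of syx-2. ain-2, the paralogue of ain-1, reached 24.1. nhl-2, a TRIM-NHL cofactor of microRNA silencing, reached 38.1, rank 300, the last of the top 1%. That summit was 848 bp upstream of nhl-2 and 575 bp from the 5′ end of tag-340. On the hormone axis, din-1, the corepressor of DAF-12, reached 35.8, daf-9, the enzyme that makes its ligand, reached 30.5, and daf-36, another enzyme of that route, had no summit within reach. kin-20, a relative of the fly kinase gene that acts on Period, reached 34.7, and the regulators sea-2 and nhr-25 reached 32.4 and 32.3. Of the genes in this group, puf-9 and drsh-1 are named for their thresholded summits and nhl-2, din-1, kin-20, sea-2 and nhr-25 as the next highest; the others were named after their values had been seen.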

How the data were processed

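UNC-39 ChIP-seq peak lists of 2 biological replicates of whole L2 larvae, the only group, were analysed on assembly ce11. Per the listings deposited beside the lists, peaks were called by the authors per replicate and over both together, against a control, and they made the thresholded list with the irreproducible discovery rate. The sources used here do not name the aligner, the peak caller or their settings. The deposited signal of each peak (column 7) is the authors' value, ranked here within each list only. The deposited significance score of the pooled peaks was not used for any result. Depth is unknown, since no read counts were used.

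Summits were assigned to a gene when inside it or within 5 kb, with genes from Ensembl release 115 (WBcel235, which is ce11) and bases from the RefSeq genome of that build. All 10 gene symbols were found. Among the 29 other genes, let-7 was matched through the RefSeq gene table. A thresholded peak was a pooled peak of the 140. Counts of genes called are given beside the share over all protein-coding genes, and shares of summits by annotation, partner and sequence beside those over all pooled summits. Exact binomial (Clopper-Pearson) intervals at 95% cover counting error only. No test was made, because the genes and lists were chosen with earlier results of these data known. Summit assignment and counting were checked on simulated peaks. The 10 genes are all named; of the others, those with a thresholded summit and the 5 next highest were named by rule, and further ones after their values had been seen. Alternatives changed the reach, the partner distance, the window, the threshold and the replicate used. Python 3.11.15, numpy 2.4.6, pandas 2.3.3, scipy 1.17.1 and matplotlib 3.10.9 were used.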

Additional observations from a re-analysis of the deposited data

How the results depend on the processing

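The 3 genes with a thresholded summit (ain-1, lin-66 and daf-12) stayed 3 with a reach of 1, 2 or 10 kb. The shares of all protein-coding genes at these reaches were 0.666%, 0.966% and 2.91%. The count also stayed 3 with each summit given to its nearest gene only, for which no share was computed. The 5 genes with a summit in the top 1% became 4 with a reach of 1 kb, against 1.42% of all genes. They were also 4 with the nearest gene only. With each replicate's own 140 highest peaks in place of the thresholded list, the count ran from 1 (without replicate 2) to 4 (without replicate 1). The shares of all protein-coding genes were 1.72% and 1.61%. The count of genes with a summit in the top 1% ran likewise from 2 to 6, against shares of 3.61% and 2.96%. In the pooled list it was 5, against 3.49%. Summits in reach numbered 76 to 83 in the single replicates. Of the 29 other pathway genes, 2 had a thresholded summit, but 1 with a reach of 1 kb or 2 kb and 1 with the nearest gene only, since the drsh-1 summit is 2985 bp away. The highest signals of lin-46, lin-28, lin-41 and hbl-1 moved with the reach; at 1 kb, lin-41 was at 25.7, and hbl-1 had no summit. The alternatives for agreement of the replicates and for the lin-14 count were chosen after seeing the data. No paired analysis was possible because there is 1 group. Depth is unknown, and 2 replicates give only a poor estimate of the spread of a rank.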

Other observations

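Some replicate summits near the 10 genes had no pooled summit within 100 bp. In replicate 1 they were 38 of the 83 summits in reach (45.8%), against 44.6% of that replicate's whole list, and in replicate 2 they were 25 of 76 (32.9%), against 44.5%. The highest of them in replicate 1, rank 615 with a signal of 20.1, lay 150 bp upstream of the 5′ end of lin-42 and was that replicate's highest summit at the gene; the nearest pooled summit was 113 bp away. The highest in replicate 2, rank 1579, was in a lin-14 intron.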
